A study of Arabidopsis thaliana with 12 samples.

Results

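Endoglucanases cut the internal bonds of cellulose and related glucans and act in the making, loosening and breakdown of plant cell walls. In Arabidopsis thaliana most of them belong to the GH9 family, whose class A includes the membrane-anchored KORRIGAN enzymes of cellulose synthesis, whose class B enzymes are secreted, and whose class C enzymes carry an extra carbohydrate-binding module. In anthers, walls are built and removed as pollen matures, as the tapetum breaks down and as the anther opens. The genes described here are GH9A4 (AT3G43860, class A by its name), GH9B17 (AT4G39000, class B by its name) and AT1G13130. The last carries no GH9 name and is listed here with the GH5 cellulase-like and mannanase genes, so the GH9 genes are not its own family.

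Each of the 3 genes was represented by 1 probe set that the probe annotation gives to that gene alone, so they are 3 of 13287 genes with a probe set of their own. They were chosen partly on their measured signals over the 6 groups of arrays. Their levels and differences are therefore given as a description, with SE but without p-values, and nothing rests on whether they pass a threshold. Signal can be compared between arrays for 1 probe set, and not between probe sets.

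The material was whole anthers and their filaments, and each of 12 ATH1 arrays reported the brightness of sets of short probes. Of these, 6 arrays came from ms35 and 6 from a wild-type control. Each genotype had 2 arrays per stage, and the stages carry the labels PMI (pollen mitosis I), bicellular and PMII (pollen mitosis II). The labels give ms35 as a gene knock-out in Ler-0, and the control as stock N64, named Glabra in its source and Ler in its titles, so the backgrounds may differ beyond the ms35 lesion. ms35 is affected in MYB26, a transcription factor needed for wall thickening in the endothecium, and its anthers do not open; the study asked which genes act downstream of it. MYB26 had no named probe set, so the targeted gene was not analysed here. Growth conditions were shared by both genotypes, namely 22 °C and a day of 22 h followed by a night of 2 h. The labels number the replicates without saying whether they came from separate plants, so the spread between them may be technical.

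Arrays of 1 group correlated across probe sets with r from 0.910 to 0.941. A low-signal limit was set at 25.5, the 40th percentile of all values, which 13271 to 14470 probe sets exceeded on each array. Summed over each list, late pollen markers were highest in the arrays labelled PMI and tapetum markers in those labelled PMII. In ms35, the late pollen genes ANX2 and AT2G21480 were not highest at PMI. The order of the sums runs against the usual order of these stages, so stage names are used only as labels. The words later, step, fell and rose follow the order of the labels, which need not be the order of anther development. Both marker sets were present, as anthers require: all 13 named late pollen genes and all 4 named tapetum genes passed the low-signal limit on some arrays. GAPDH probes near the 3' end gave 1.29 to 2.86 times the signal of those near the 5' end, a measure that goes up as RNA degrades. The 2 highest ratios were those of ms35 bicellular replicate 2 (2.37) and wild type PMII replicate 2 (2.86).

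All 3 endoglucanase genes had their highest signals in the arrays labelled PMI, in ms35 and in wild type alike. In both genotypes, each of the 3 genes had both PMI arrays above all 4 later arrays of that genotype, a pattern met by 9.51% of the 16464 probe sets tested. This pattern was in view when the genes were chosen, so the count is a description. Only AT1G13130 also separated the genotypes at every stage, with both ms35 arrays below both wild type arrays each time, as 2.99% of probe sets did.

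**Figure D1:**
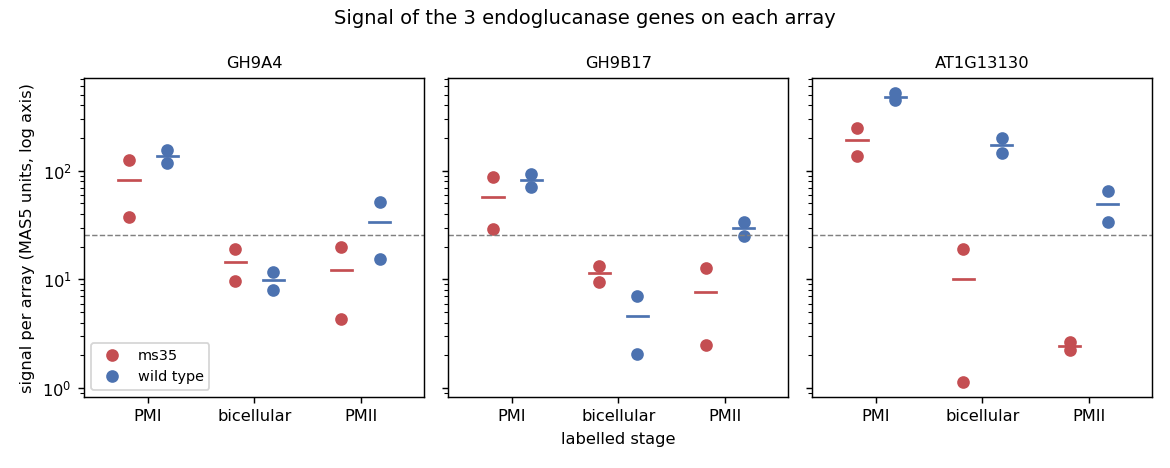
Signal (MAS5 units, log axis) of GH9A4, GH9B17 and AT1G13130 on each of the 12 arrays, by labelled stage, with ms35 left of wild type. Points are arrays, short bars are means of 2 arrays, and the dashed line is the low-signal limit of 25.5; levels are not comparable between panels. All 3 genes peak in the arrays labelled PMI, and AT1G13130 lies below wild type in ms35 at each stage.

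AT1G13130 showed the clearest difference between the genotypes. At PMI it had signals of 136 and 247 in ms35 and of 443 and 520 in wild type. At the bicellular stage it had 1.13 and 19.1 in ms35, against 145 and 199 in wild type. At PMII it had 2.63 and 2.25 in ms35, against 33.4 and 65.0 in wild type. The groups did not overlap at any stage. All 4 later ms35 arrays were under the low-signal limit, while all 6 wild type arrays were above it.

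On the log2(signal + 2.23) scale, AT1G13130 was lower in ms35 by a difference of -1.38 ± 0.66 (SE) for PMI, -4.34 ± 0.66 for bicellular and -3.39 ± 0.66 for PMII, and by -3.04 ± 0.38 averaged over the stages. The later differences set wild type against ms35 signals too low to be told from background with these values. With signals under the limit raised to it, and folds taken between means of log2 values, AT1G13130 was at least 6.66-fold lower in ms35 at bicellular and at least 1.83-fold lower at PMII. At PMI both groups were measured, and the fold between means of log2 values was 2.63, with arithmetic means of 191 ± 78.4 in ms35 and 482 ± 54.4 in wild type (SD, n = 2 each).

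Within each genotype AT1G13130 followed the labelled stages, but not to the same level. The ms35 averages were 191 for PMI, 10.1 for bicellular and 2.44 for PMII. The wild type averages were 482 for PMI, 172 for bicellular and 49.2 for PMII, with no overlap between successive stages. The step to bicellular was -4.45 ± 0.66 in ms35 and -1.49 ± 0.66 in wild type (log2 differences, bicellular minus PMI). The next step was -1.81 ± 0.66 in wild type (PMII minus bicellular), and in ms35 both groups were under the limit. The order of the 6 group levels was wild type PMI, ms35 PMI, wild type bicellular, wild type PMII, ms35 bicellular and ms35 PMII. Of the neighbours in that order, ms35 PMI and wild type bicellular overlapped, as did ms35 bicellular and ms35 PMII.

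GH9A4 was highest in the arrays labelled PMI within each genotype, though wild type PMII replicate 2 lay above ms35 PMI replicate 1. In ms35 it had signals of 37.9 and 125 in PMI arrays, 9.70 and 19.0 in bicellular arrays, and 20.0 and 4.33 in PMII arrays. In wild type it had 117 and 155 in PMI arrays, 8.06 and 11.8 in bicellular arrays, and 15.3 and 51.7 in PMII arrays. It passed the low-signal limit on 5 of 12 arrays, the 4 labelled PMI and wild type PMII replicate 2, whose GAPDH ratio was 2.86.

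The step of GH9A4 to bicellular was -2.17 ± 0.72 in ms35 and -3.51 ± 0.72 in wild type (log2 differences, bicellular minus PMI). Against the limit, bicellular signal was at least 2.70-fold lower in ms35 and at least 5.27-fold lower in wild type. Between genotypes, GH9A4 arrays overlapped at each stage, with log2 differences of -0.94 ± 0.72 at PMI and -1.35 ± 0.72 at PMII (ms35 minus wild type), and with both groups under the limit at bicellular. Averaged over the stages the difference was -0.63 ± 0.42. Wild type PMI, ms35 PMI, wild type PMII, ms35 bicellular, ms35 PMII and wild type bicellular was the order of its levels, and each neighbour overlapped the next.

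GH9B17 was also highest in the arrays labelled PMI. In ms35 its signals were 29.0 and 86.8 in PMI arrays, 13.3 and 9.51 in bicellular arrays, and 2.50 and 12.8 in PMII arrays. In wild type they were 70.3 and 93.5 in PMI arrays, 2.06 and 7.07 in bicellular arrays, and 25.1 and 33.7 in PMII arrays. It passed the limit on 5 of 12 arrays, the same ones as GH9A4, so both genes passed the filter through their PMI arrays.

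The step of GH9B17 to bicellular was -1.96 ± 0.70 in ms35 and -3.72 ± 0.70 in wild type (log2 differences, bicellular minus PMI), at least 1.97-fold and at least 3.18-fold lower against the limit. In wild type the PMII arrays lay above the bicellular arrays, by 2.31 ± 0.70 (PMII minus bicellular). With signals under the limit raised to it, the fold was 1.15. That is not a lower bound, since wild type PMII replicate 1 (25.1) was itself raised. In ms35 the PMII and bicellular arrays overlapped and lay under the limit. At PMII the ms35 arrays of GH9B17 lay below those of wild type (-1.90 ± 0.70, and 1.15-fold with raised signals, again no lower bound). At PMI they overlapped (-0.66 ± 0.70). Averaged over the stages the log2 difference was -0.49 ± 0.40, and in the order of levels the one gap between neighbours without overlap was that of wild type PMII above ms35 bicellular.

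The calls that follow use the values that chose the genes, so they are given beside the background as a description. GH9A4 and GH9B17 had no bicellular array above the limit and passed the filter through the PMI arrays where they were high, so their calls in the step to bicellular support nothing. AT1G13130 had no bicellular or PMII array of ms35 above the limit and passed the filter through arrays where it was high. Its calls, kept or lost under alternatives, support nothing either. In the fit over all 16464 probe sets, 1 of the 3 genes, AT1G13130, was called lower in ms35 averaged over the stages, where 3.03% of all probe sets were called lower (limma, Benjamini-Hochberg threshold 0.05). The same gene was called lower at bicellular (background 1.37%) and at PMII (0.516%), and none of the 3 was at PMI (1.03%). In wild type, GH9A4 and GH9B17 were called lower in the step to bicellular (7.29% of probe sets, and 8.02% with median centring, since the median of all probe sets shifted by 0.14 in this step). In ms35, AT1G13130 was called lower in it (1.01%, or 1.25% with median centring). None was called in the step to PMII in wild type (1.55% called in either direction) or in ms35 (0.413%). The PMII call of AT1G13130 held under 12 of 23 alternatives. It was lost without any single wild type array or either ms35 PMII array (log2 differences of -3.85 to -2.93), without a pseudocount (-4.26), without the variance trend and with signals floored at the limit (-0.87). The bicellular call of AT1G13130 was lost without wild type bicellular replicate 2 (-4.12) and its step call in ms35 without ms35 PMI replicate 2 (-4.03), and GH9A4 lost its step call without wild type PMI replicate 2 (-3.31, all log2 differences).

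**Figure D2:**
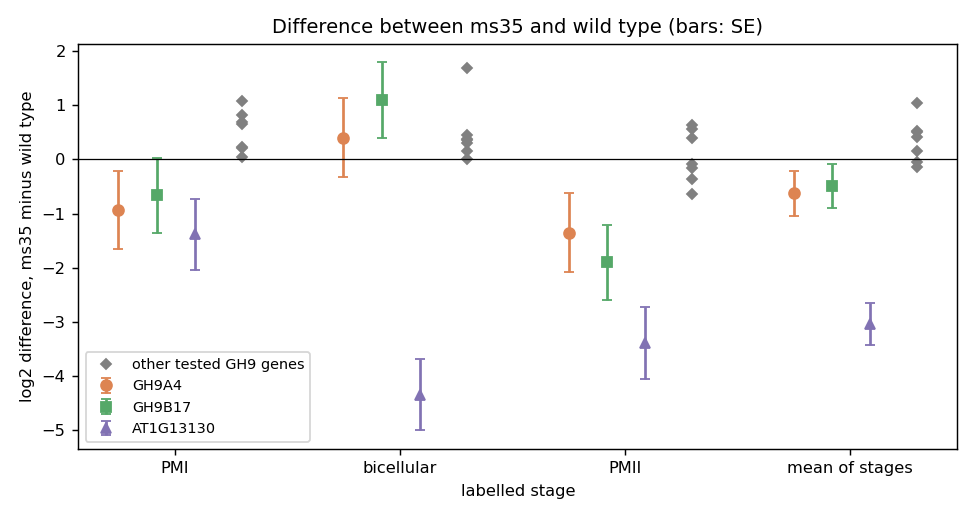
Log2 difference in signal, ms35 minus wild type, at each labelled stage and averaged over the stages, for GH9A4, GH9B17 and AT1G13130 with SE bars, and for the 7 other tested GH9 genes as grey diamonds without bars. AT1G13130 lies at -4.34 at bicellular and -3.39 at PMII, while the points of GH9A4 and GH9B17 at bicellular come from signals under the low-signal limit in both genotypes.

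Over the 12 arrays GH9A4 and GH9B17 had the most similar profiles of the 3 genes (Pearson r = 0.83, Spearman rho = 0.79, log2 scale). AT1G13130 was less like GH9A4 (r = 0.69, rho = 0.66) and GH9B17 (r = 0.56, rho = 0.52). These are descriptions over arrays that share stage and genotype in pairs, and no p is given for them. Among named tested probe sets, the 5 most like GH9A4 were RALFL26, which encodes a RALF-like signal peptide (r = 0.98), AT1G19680 (0.97), AT3G62710 (0.97), the pollen actin-binding LIM gene PLIM2a (0.97) and AT4G39130 (0.97). The 5 most like GH9B17 were AT2G45610 (r = 0.95), AT2G28400 (0.94), AT3G52800 (0.93), PUB19, which encodes a U-box ubiquitin ligase (0.93), and AT3G10460 (0.92). The 5 most like AT1G13130 were AUR2, which encodes an Aurora kinase of cell division (0.95), AT5G06330 (0.93), AT2G26490 (0.92), AT2G29670 (0.91) and AT5G04830 (0.91). No gene stood among the nearest 5 of more than 1 of the 3.

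The late pollen sum and the anther opening gene ADPG1 were high at the same stage. The summed signal of the 13 named late pollen genes (of 14 listed, with none under the limit on every array) was 3396 to 3768 in ms35 and 4656 to 5264 in wild type at PMI. At bicellular it was 1049 to 2300 in ms35 and 814 to 1214 in wild type, and at PMII 547 to 812 in ms35 and 519 to 766 in wild type. Bright genes weigh most in this sum. In ms35, ANX2 averaged 4.88 at PMI and 9.63 at bicellular, and AT2G21480 averaged 13.6 and 22.1, opposite to the sum. In the step to bicellular in wild type 8 of the 13 were called lower and none higher (limma, against 7.29% and 10.8% of all probe sets). In ms35 1 of 13, PLIM2a, was called lower (1.01% of all probe sets). The lists were chosen with earlier results of these data known, so these calls are a description and support nothing. In bulk anthers, fewer cells of a type and less RNA per cell cannot be told apart, and the part of pollen content in the stage profiles of GH9A4, GH9B17 and AT1G13130 was not tested.

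Between genotypes the late pollen genes gave no call at any stage or on average (limma; 1 to 3 of 13 at an unadjusted p under 0.05). At PMI both the late pollen sum and the AT1G13130 signal were lower in ms35, without overlap between the genotypes. At bicellular AT1G13130 was at 1.13 and 19.1 in ms35 and 145 and 199 in wild type. The late pollen sum there was lowest in 1 wild type array. The ms35 array with the sum of 2300 was replicate 2, which also had the higher AT1G13130 signal of its group. Summed signals of the 4 named tapetum genes (of 12) and the 3 named green tissue genes (of 8) ran opposite to the stage profile of the 3 endoglucanase genes. The tapetum sum was 399 to 570 in ms35 and 281 to 339 in wild type at PMI, and 5301 to 9294 in ms35 and 5392 to 5481 in wild type at PMII. The green tissue sum was 1129 to 1568 in ms35 and 1172 to 1435 in wild type at PMI, and 3637 to 4323 in ms35 and 3811 to 3835 in wild type at PMII. The 2 named carpel and perianth genes summed to between 46.9 and 111 on all arrays. ADPG1, a polygalacturonase of anther opening and the 1 named gene of 8 on that list, had 210 to 531 in ms35 and 236 to 273 in wild type at PMI, and 42.3 to 86.7 in ms35 and 14.6 to 28.0 in wild type at bicellular. ADPG1 fell in the wild type step to bicellular (log2 difference of -3.50, limma adjusted p = 0.00316), and its step in ms35 was -2.42 (limma adjusted p = 0.0614). Its list was also chosen with earlier results of these data known, so these p-values are a description. Over the 12 arrays, which share stage and genotype in pairs, ADPG1 correlated with GH9A4 at r = 0.84, with GH9B17 at 0.79 and with AT1G13130 at 0.57. For the mean log2 signal of the late pollen genes these were 0.78 with GH9A4, 0.71 with GH9B17 and 0.67 with AT1G13130. In the same order they were -0.70, -0.64 and -0.76 for tapetum genes and -0.68, -0.57 and -0.81 for green tissue genes. For carpel and perianth genes they were 0.54, 0.56 and 0.35. Spearman rho was 0.59, 0.64 and 0.64 for late pollen genes, and 0.56, 0.65 and 0.30 for carpel and perianth genes. The part of these marker genes in the profiles of the 3 genes was not tested.

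**Figure D3:**
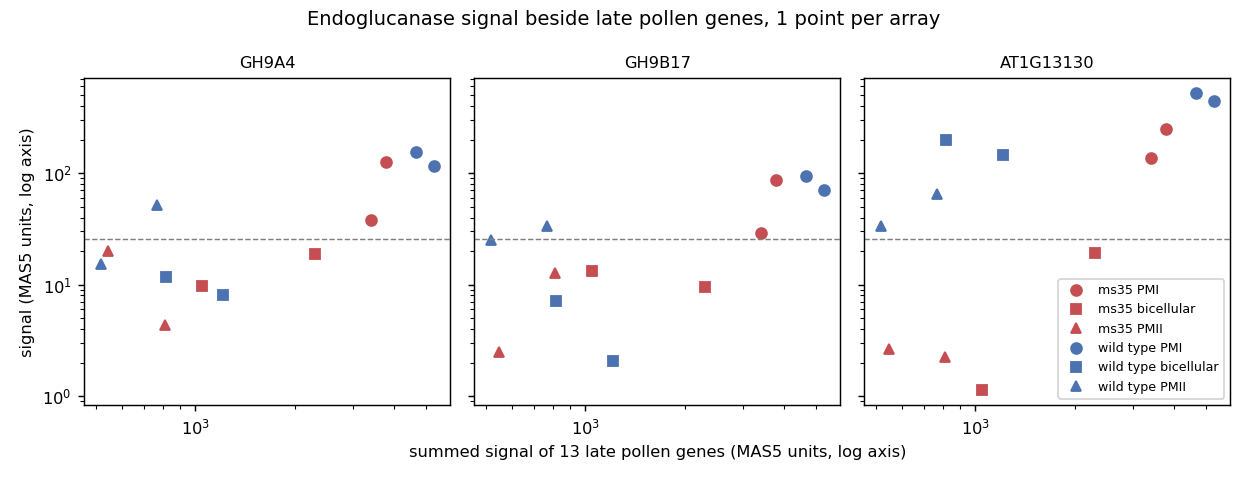
Signal (MAS5 units, log axis) of each endoglucanase gene against the summed signal of 13 late pollen genes (log axis), with 1 point per array, colour for genotype and symbol for labelled stage; the dashed line is the low-signal limit. For AT1G13130 the 4 later wild type arrays lie above the limit at late pollen sums of 519 to 1214, and the 4 later ms35 arrays lie below it at 547 to 2300. At PMI both AT1G13130 and the late pollen sum are lower in ms35, with sums of 3396 to 3768 against 4656 to 5264. The part of pollen content in these differences was not tested.

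None of the 7 other tested GH9 genes had both ms35 arrays below both wild type arrays at every stage, as AT1G13130 had. Of all probe sets tested 2.99% had this pattern, so its absence among so few genes says little. Of the 23 other GH9 genes, 13 had a named probe set and 7 passed the filter on low signal, and a further 2 probe sets that match several GH9 genes were not named. None of the 7 was called between genotypes, on average or at any stage (limma; 3 of 7 at an unadjusted p under 0.05 on average, 1 at PMI, 1 at bicellular and 0 at PMII). Of all probe sets, 5.27% were called on average, 2.03% at PMI, 1.77% at bicellular and 0.948% at PMII. Their median log2 difference averaged over the stages was 0.42, against 0.02 for all probe sets tested. GH9B5, a class B gene, had the lowest adjusted p, with 1.05 ± 0.29 (ms35 minus wild type, limma adjusted p = 0.0612), above wild type in ms35 and so opposite in sign to AT1G13130. Its adjusted p was 0.0427 with quantile normalization, 0.0279 with a pseudocount of 16, 0.0419 with a replicate block, 0.00846 without ms35 PMII replicate 1 and 0.0290 without wild type PMII replicate 2. GH9A3 passed without ms35 PMII replicate 1 (0.0386) and GH9C2 without wild type bicellular replicate 2 (0.0438).

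Of the 7, GH9B5 and GH9B13 also had both PMI arrays above all later arrays in both genotypes, as 9.51% of all probe sets tested did. GH9B13, another class B gene, averaged 603 at PMI in ms35 and 503 in wild type, and 324 at bicellular in ms35 and 254 in wild type. Its step to bicellular was -1.03 ± 0.34 in wild type (limma adjusted p = 0.0527) and -0.96 ± 0.34 in ms35 (limma adjusted p = 0.153). GH9B13 passed in wild type with median centring (limma adjusted p = 0.0316), a pseudocount of 16 (0.0433), the stricter filter (0.0477), array weights (0.0333) or the replicate block (0.0155). It did not pass with quantile normalization, without a pseudocount, without a filter, without the variance trend or with floored signals. With arrays left out it passed in some fits and not in others. In ms35 GH9B13 passed only in fits without ms35 bicellular replicate 2, where the step was -1.48. None of the 7 was called in a step between stages (limma; 4 of 7 at an unadjusted p under 0.05 in the wild type step to bicellular and 1 in that of ms35). In ms35, GH9B5 and GH9A3 passed in the step to PMII only without ms35 PMII replicate 2 (log2 differences of -2.39 and -1.75). In the wild type step to bicellular GH9B5 passed with a pseudocount of 16 (limma adjusted p = 0.0490) and without either ms35 PMII array. It did so under no other alternative. Of all probe sets, 18.1% were called in the step to bicellular in wild type and 2.64% in ms35. The median over the 7 was -0.22 in that step, against 0.14 for all probe sets, and -0.48 in ms35, against 0.06.

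**Figure D4:**
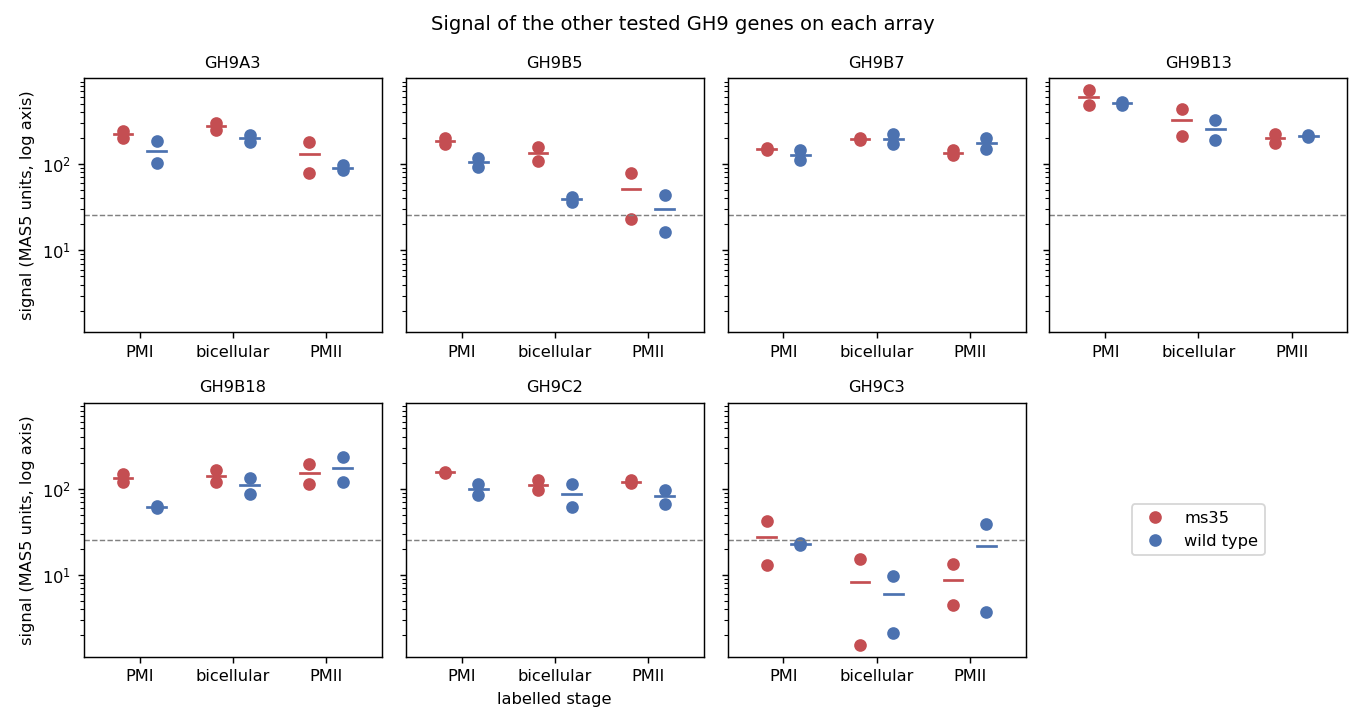
Signal (MAS5 units, log axis) of the 7 other tested GH9 genes on each array, by labelled stage, with ms35 left of wild type; points are arrays, short bars are means of 2 arrays, the dashed line is the low-signal limit, and levels are not comparable between panels. GH9B5 and GH9B13 are highest at PMI in both genotypes, and GH9B18 is highest at PMII in wild type.

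GH9B17 lies in a row of GH9 genes on chromosome 4, between GH9B16 and GH9B18 in locus order. GH9B16 had signals from 1.22 to 23.3, all under the low-signal limit, and was not tested. GH9B18 was above the limit on all 12 arrays, up to 231, and its PMI arrays were not its highest. At PMI it averaged 133 in ms35 and 61.9 in wild type, a log2 difference of 1.07 ± 0.35 (limma adjusted p = 0.177). Its step to bicellular in wild type was 0.78 ± 0.35 (limma adjusted p = 0.151), opposite in sign to that of GH9B17. The named loci nearest GH9A4 on both sides and the one before AT1G13130 were not tested, since their signals were too low. The locus after AT1G13130 with a named probe set, AT1G13160, lay 4 loci away. Its averaged log2 difference was 0.40, opposite in sign to that of AT1G13130 but not called (limma adjusted p = 0.227). At bicellular its difference was -0.13, of the same sign as that of AT1G13130.

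Other genes that build or reshape cellulose and xyloglucan gave 1 call in all. COB, a membrane-anchored protein that orients cellulose microfibrils and the single named gene of 16 on the cellulose synthesis list, rose in wild type in the step to bicellular. Its signals were 209 and 225 at bicellular and 127 and 122 at PMI, a log2 difference of 0.79 ± 0.18 (limma adjusted p = 0.012), in a step where 10.8% of all probe sets were called higher. The steps of the 3 endoglucanase genes had the opposite sign. The COB call did not hold when wild type PMI replicate 2 (limma adjusted p = 0.0644) or wild type bicellular replicate 2 (0.0924, the highest) was left out, and the lowest adjusted p over the alternatives was 0.00652. Its genotype differences were not called (0.27 ± 0.11 averaged, adjusted p = 0.183).

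Of 33 xyloglucan endotransglucosylase/hydrolase genes, which cut and rejoin the xyloglucan that coats cellulose, 10 were named, 5 were tested and none was called in any contrast (limma; 0 or 1 of 5 at an unadjusted p under 0.05 in each). XTH29 had both PMI arrays above all later arrays in both genotypes. Its step to bicellular was -2.01 ± 0.75 in wild type (limma adjusted p = 0.083). Among the alternatives that step passed only with a pseudocount of 16 (limma adjusted p = 0.0236) and with floored signals (0.00455). With floored signals XTH29 also passed in that step in ms35 (-0.92, limma adjusted p = 0.0211). Of the other GH5 cellulase-like and mannanase genes, the list of AT1G13130, 1 was tested, AT3G26140, with no call and an averaged genotype difference of 0.34. Over all 14 other tested wall genes none was called between genotypes, on average or at any stage (limma, with 4 of 14 at an unadjusted p under 0.05 on average). Of the 14, 3 had the PMI arrays above all later arrays in both genotypes, as 9.51% of all probe sets did. None of the 14 had the ms35 arrays below the wild type arrays at each stage, as 2.99% of all probe sets did.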

How the data were processed

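The values deposited by the authors are probe set signals (intensity, linear scale) from MAS5 and GCOS, per the submitters' processing notes. The 2% trimmed mean was 99.0 to 99.3 on every array, as global scaling gives. The number of arrays limits precision. After 64 control probe sets were left out of 22810, log2(signal + 2.23) was computed, the pseudocount being the 10th percentile, and probe sets with at least 2 arrays above 25.5 were tested. A fold on this scale understates changes of dim genes. Names came from the probe annotation, with 13436 of 13513 single-gene probe sets updated through a TAIR10.1 gene table.

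Limma 3.58.1 in R 4.3.3 fitted the 6 group means over 12 arrays (6 residual degrees of freedom) with an intensity trend. It was tested on simulated data. Contrasts were ms35 minus wild type on average and by stage, successive stages within genotype, and their interaction. The members and lists were chosen with earlier results of these data known. Named genes were the 3 members, list genes that passed or came nearest, the 5 most correlated probe sets per member and neighbouring loci; GH9A3, GH9B5, GH9B13, GH9C2, XTH29, EXGT-A3 and AT3G26140, which did not pass, were named after their values were seen. Same-numbered replicates deviated together in 1 of 15 pairs (r over 0.1; range -0.07 to 0.11), so numbers were not used as pairs.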

Additional observations from a re-analysis of the deposited data

Results flagged for a closer look

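GH9B17 had all ms35 arrays above all wild type arrays at bicellular (1.10 on the log2 scale) and all below them at PMII (-1.90), so the differences lay 3.00 apart. All bicellular signals of GH9B17 were under the low-signal limit, as were both ms35 PMII signals (2.50 and 12.8) and wild type PMII replicate 1 (25.1). Wild type PMII replicate 2 (33.7) was above it and had a GAPDH ratio of 2.86. The difference between these 2 stages was not tested on its own. The genotype by stage interaction was fitted over all 3 stages, but no p-value is given for GH9B17, which was chosen partly on these signals.

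EXGT-A3, a xyloglucan endotransglucosylase/hydrolase gene also known as XTH27, had all ms35 arrays below wild type at PMI (-0.48) and above it at bicellular (0.51), which gives -0.99 for the first minus the second. Neither difference was called by limma (adjusted p = 0.606 and 0.681), and the difference between these 2 stages was not tested on its own. The genotype by stage interaction over all 3 stages was not called for EXGT-A3 (limma adjusted p = 0.72).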

How the results depend on the processing

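Of 552 values of the 3 genes' differences under alternatives, 516 moved by less than the spread between arrays and 34 moved by more. Some of these turned sign from a main value smaller than its SE, such as the ms35 step of GH9A4 to PMII (-0.40, up to 0.48). Many could not move, since the filter, variance trend, block and weight settings, or arrays left out of other groups, leave a difference unchanged. The count therefore says little about how firm the differences are. The other 2 values turned sign from a main value larger than its SE. Both were the ms35 step of AT1G13130 to PMII, 0.47 without ms35 bicellular replicate 2 and without the 2 arrays of highest GAPDH ratio; its signals there were under the limit, and single arrays left out took this step from -2.19 to 0.47. Flooring signals at the limit, an alternative chosen after seeing the data, took the averaged genotype difference of AT1G13130 to -1.67. Low signal, not told from background here, limits all later-stage values of GH9A4 and GH9B17.

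Leaving out single arrays, calls over all probe sets ran from 127 to 359 for the genotype effect at PMI, 97 to 284 at bicellular, 45 to 178 at PMII and 6 to 56 for the interaction. They ran from 1056 to 3159 and 21 to 390 for the wild type steps to bicellular and PMII, and from 33 to 818 and 0 to 579 for the ms35 steps. The averaged effect ran from 588 to 837. Without the variance trend the counts were 179 at PMI, 57 at PMII, 0 for the interaction, 60 for the wild type step to PMII, and 111 and 17 for the ms35 steps. Without the 2 arrays of highest GAPDH ratio they were 59 at PMII, 17 for the interaction, 101 for the wild type step to PMII, and 878 and 0 for the ms35 steps. A pseudocount of 16 gave 70 for the interaction, 412 for the wild type step to PMII and 255 for the ms35 step to PMII. Floored signals gave 115 and 411 for the first pair of these. Median centring gave 15 for the interaction, and array weights 245 and 3 for the ms35 steps. The ms35 step to PMII had 1 call without a pseudocount, 37 without a filter and 39 with a stricter one. A replicate block gave 653 and 181 for the ms35 steps and kept each call that the 3 genes had in the main fit. Calls that the 3 genes may have gained under alternatives were not recorded. The cause of these changes was not tested.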
